A study of Homo sapiens with 25 samples.

Results

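MLL4 binding was compared between HCT116 cells carrying FOXD2 and HCT116 cells carrying an empty vector, with 2 chromatin immunoprecipitation libraries in each group. The 4 libraries were those that the labels give for an MLL4 antibody, of 25 libraries in the series, and each had its own list of peaks. FOXD2 cells had been transduced with a pSin lentivirus holding the full-length FOXD2 coding sequence, and Control cells with the empty pSin vector. Both were kept as stable lines under puromycin at 5 μg/ml and were precipitated with the same KMT2D antibody from formaldehyde-crosslinked, sonicated chromatin. HCT116 is an established human colorectal carcinoma line, and the FOXD2 in these cells was added from the vector rather than raised from the cells' own gene. Nothing in the labels says that the libraries numbered 1 and 2 came from separate cultures, so p-values describe only the spread among these libraries, which can be technical. The source label also differs between the libraries numbered 1 and those numbered 2, in both groups. Histone marks came from chromatin of the same stable lines digested with MNase without crosslinking.

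MLL4 is the product of KMT2D and, as the catalytic subunit of a large COMPASS-like complex, places monomethyl marks on lysine 4 of histone H3 (H3K4me1). It is best known for binding enhancers, where H3K4me1 is often joined by acetylation of lysine 27 (H3K27ac) in the active state, whereas trimethylation of lysine 4 (H3K4me3) is typical of active promoters. FOXD2 is a forkhead transcription factor that binds DNA through a winged-helix domain. The comparison asked where MLL4 sits when FOXD2 is present and where it sits without it.

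On chromosomes 1 to 22 and X, the FOXD2 lists held 22493 and 4676 MLL4 peaks in replicates 1 and 2, against 16046 and 13571 in the Control lists. FOXD2 replicate 2 therefore stood apart as the shortest list, and the 2 FOXD2 lists lay on either side of both Control lists (mean 13585 ± 12599 in FOXD2 and 14809 ± 1750 in Control cells, SD, n = 2 each, exact permutation p = 1, two-sided). With 2 libraries against 2, this test cannot give a p below 0.333. The lists are ordered by the authors' −log10 q, and the highest value was 79.9 and 140.7 in the FOXD2 lists against 137.4 and 305.2 in the Control lists. No source used here gives the read depth, and its part in the length of a list was not tested. Comparisons therefore used equal numbers of the strongest peaks or ranks within a list, and values over whole lists are named as such. Of 9 epithelial and intestinal markers, 7 had an H3K4me3 peak at a gene start. An MLL4 region in all 4 lists was found at 5 of the 9 (EPCAM, CDH1, KRT8, KRT18 and KRT19). The intestinal markers CDX2, HNF4A, VIL1 and CDH17 had no such region, and VIL1 and CDH17 also lacked H3K4me3 at a start. Such a region was found at 0 of 7 blood, 1 of 7 fibroblast and endothelial (COL1A2) and 1 of 5 neural markers (RBFOX3), against 8.25% of all genes. H3K4me3 at a start was found at 2, 1 and 1 of them. A region in any list was found at 8 of 9 epithelial and intestinal and 6 of 7 blood markers. For fibroblast and endothelial markers it was 5 of 7, and for neural markers 4 of 5, against 60.6% of all genes. Presence in any list therefore did not set the marker groups apart.

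Peaks of the 4 lists were merged into 35859 regions, of which 2182 were held by all 4 lists. A region was called FOXD2-only when it lay among the 2000 strongest peaks of both FOXD2 lists and of neither Control list, and Control-only in the reverse case. Promoter regions had their summit within 1 kb of the start of a protein-coding gene, and distal regions lay over 5 kb from every such start. The following promoter windows, from 250 bases before to 50 bases after a gene start in RefSeq (GRCh38.p14), lay whole within an MLL4 region. They are the leading ones, by summed rank, of the regions held by all 4 lists (CDS1 and YJU2B), of the FOXD2-only regions (DENND2B and BFSP1) and of the Control-only regions (SPATA2L and P4HTM). Capitals mark 6 motifs searched on both strands: AP-1 (TGANTCA), CRE (TGACGTCA), forkhead (TGTTTAC), the CCAAT box (CCAAT), ETS (CCGGAA) and the GC box (GGGCGG).
CDS1, chr4:84582877-84583176, plus strand: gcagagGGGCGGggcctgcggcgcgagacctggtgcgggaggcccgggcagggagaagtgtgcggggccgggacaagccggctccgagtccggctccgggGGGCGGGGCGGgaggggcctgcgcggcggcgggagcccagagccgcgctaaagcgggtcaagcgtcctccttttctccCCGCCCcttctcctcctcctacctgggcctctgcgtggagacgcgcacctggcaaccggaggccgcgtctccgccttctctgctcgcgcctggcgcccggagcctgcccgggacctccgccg
YJU2B, chr19:13731502-13731801, plus strand: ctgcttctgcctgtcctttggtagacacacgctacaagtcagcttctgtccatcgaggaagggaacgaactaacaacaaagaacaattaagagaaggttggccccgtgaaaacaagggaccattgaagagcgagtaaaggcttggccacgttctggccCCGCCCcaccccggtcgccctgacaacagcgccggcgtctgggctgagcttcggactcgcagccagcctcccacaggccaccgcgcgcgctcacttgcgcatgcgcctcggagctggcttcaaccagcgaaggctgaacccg
DENND2B, chr11:8794795-8795094, minus strand: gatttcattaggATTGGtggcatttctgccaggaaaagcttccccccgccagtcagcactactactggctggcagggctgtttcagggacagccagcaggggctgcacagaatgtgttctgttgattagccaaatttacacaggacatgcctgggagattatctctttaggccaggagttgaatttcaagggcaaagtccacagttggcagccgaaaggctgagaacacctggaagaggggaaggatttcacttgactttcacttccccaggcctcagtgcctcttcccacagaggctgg
BFSP1, chr20:17558784-17559083, minus strand: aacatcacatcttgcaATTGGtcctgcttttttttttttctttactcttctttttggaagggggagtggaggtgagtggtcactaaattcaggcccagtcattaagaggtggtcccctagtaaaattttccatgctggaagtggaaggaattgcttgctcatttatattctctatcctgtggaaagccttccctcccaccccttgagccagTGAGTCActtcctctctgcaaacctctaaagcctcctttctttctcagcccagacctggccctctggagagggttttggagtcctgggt
SPATA2L, chr16:89701656-89701955, minus strand: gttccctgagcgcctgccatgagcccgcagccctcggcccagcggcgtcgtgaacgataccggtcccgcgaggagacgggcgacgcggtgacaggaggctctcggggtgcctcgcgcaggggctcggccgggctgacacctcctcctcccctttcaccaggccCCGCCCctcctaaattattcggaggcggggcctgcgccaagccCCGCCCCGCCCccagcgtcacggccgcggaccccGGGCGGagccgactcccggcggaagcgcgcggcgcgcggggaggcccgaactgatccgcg
P4HTM, chr3:48989658-48989957, plus strand: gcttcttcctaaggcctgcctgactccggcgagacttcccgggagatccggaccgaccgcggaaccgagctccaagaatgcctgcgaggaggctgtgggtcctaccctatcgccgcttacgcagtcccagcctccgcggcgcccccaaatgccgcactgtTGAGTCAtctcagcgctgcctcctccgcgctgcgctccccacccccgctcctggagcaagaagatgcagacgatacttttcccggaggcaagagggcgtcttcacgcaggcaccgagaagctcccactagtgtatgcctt

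The CDS1 and SPATA2L windows are dense in G and C (76.7% and 75.7%) and carry GC boxes as their only motif of the 6. The DENND2B window, which carries a single CCAAT box, and the BFSP1 window, with a CCAAT box and an AP-1 motif, hold 52.3% and 47.0%. The P4HTM window has an AP-1 motif and no other of the 6. The YJU2B window has a GC box and 60.3% G and C. Over all such windows, the median G and C content was 56.8% in the 10 windows inside FOXD2-only regions, 67.2% in the 42 inside Control-only regions, 66.3% in the 306 inside regions of all 4 lists and 62.3% in all 22012 protein-coding windows. A GC box was found in 5 of 10, 32 of 42 (76.2%) and 230 of 306 (75.2%) of these, against 56.3% of all windows. The AP-1 letters were in 2 of 10, 9 of 42 (21.4%) and 39 of 306 (12.7%), against 6.16% of all windows. The CCAAT letters were in 6 of 10, 12 of 42 (28.6%) and 116 of 306 (37.9%), against 34.7% of all windows. The forkhead letters were in 0 of 10, 1 of 42 and 7 of 306 windows (2.29%), against 2.86% of all windows. The CRE letters were in 0 of 10, 1 of 42 and 15 of 306, against 2.25%, and the ETS letters in 2 of 10, 7 of 42 and 59 of 306, against 21.1%. The motifs can overlap one another, and a match describes letters in a window and not a bound site.

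The regions with the lowest sum of ranks over the 4 lists, which this choice makes strong in both groups, were mostly distal. The first lay on chromosome 19 (17134906 to 17136009, hg38), 59763 bp from the start of MYO9B, an unconventional myosin. It ranked 2nd and 1st in the FOXD2 lists and 1st in both Control lists, with an enrichment over background, as the authors' fold, of 17.6 and 42.0 in FOXD2 cells against 34.9 and 78.9 in Control cells. Next by summed rank came a distal region 12344 bp from CACNG4, a calcium channel gamma subunit, which ranked 5 and 25 in the FOXD2 lists against 2 and 5 in the Control lists. A distal region 11343 bp from S100A11, a calcium-binding S100 protein, ranked 16.5 and 20 in FOXD2 cells against 4 and 4 in Control cells (tied peaks share the mean of their ranks). The CDS1 promoter, shown above, was the only promoter among the 10 regions with the lowest rank sums, and ranked 1 and 19 in FOXD2 cells against 35.5 and 60 in Control cells. CDS1 encodes an enzyme that makes CDP-diacylglycerol for phospholipid synthesis. The others lay near ACBD3, LOC124904789, CENPV, EHMT1, PAQR7 and MERTK. All 10 overlapped H3K4me3 peaks in both FOXD2 and Control cells and H3K4me1 peaks in all 4 lists of that mark, and 9 of the 10 were distal.

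MLL4 lay mostly away from gene starts in all 4 libraries. Over whole lists, 25.4% and 12.1% of peaks were at promoters in FOXD2 cells, against 31.5% and 26.8% in Control cells. Both FOXD2 lists were below both Control lists (18.8% ± 9.4 against 29.1% ± 3.3, SD, n = 2 each, exact permutation p = 0.333, two-sided). Among the 2000 strongest peaks of each list, the promoter share was 23.35% and 9.2% in FOXD2 cells against 19.45% and 14.3% in Control cells, and the groups overlapped (16.3% ± 10.0 against 16.9% ± 3.6, SD, n = 2 each, exact permutation p = 1). The libraries numbered 1 and those numbered 2 gave opposite directions, with FOXD2 replicate 1 above Control replicate 1 and FOXD2 replicate 2 below Control replicate 2. The lower promoter share over whole lists was therefore not seen at equal list length.

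H3K4me3 covered over 54% of the 2000 strongest MLL4 peaks in every library, and many of those far from gene starts. Of the 2000 strongest, 75.65% and 54.75% overlapped a peak of both H3K4me3 lists in FOXD2 cells, against 75.95% and 73.5% in Control cells (65.2% ± 14.8 against 74.7% ± 1.7, SD, n = 2 each, exact permutation p = 0.667). FOXD2 replicate 1 and both Control lists lay within 3 percentage points of each other, and FOXD2 replicate 2 lay far below them. Among distal peaks of the same 2000, H3K4me3 covered 66.3% and 48.1% in FOXD2 cells against 67.7% and 67.1% in Control cells. Most of the remaining peaks overlapped H3K4me1 in all 4 lists of that mark without H3K4me3 in both (23.2% and 43.1% in FOXD2 cells against 23.95% and 26.25% in Control cells). FOXD2 replicate 2 had the lowest promoter share and the lowest H3K4me3 share at 500, 1000, 2000 and 4000 peaks.

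**Figure D1:**
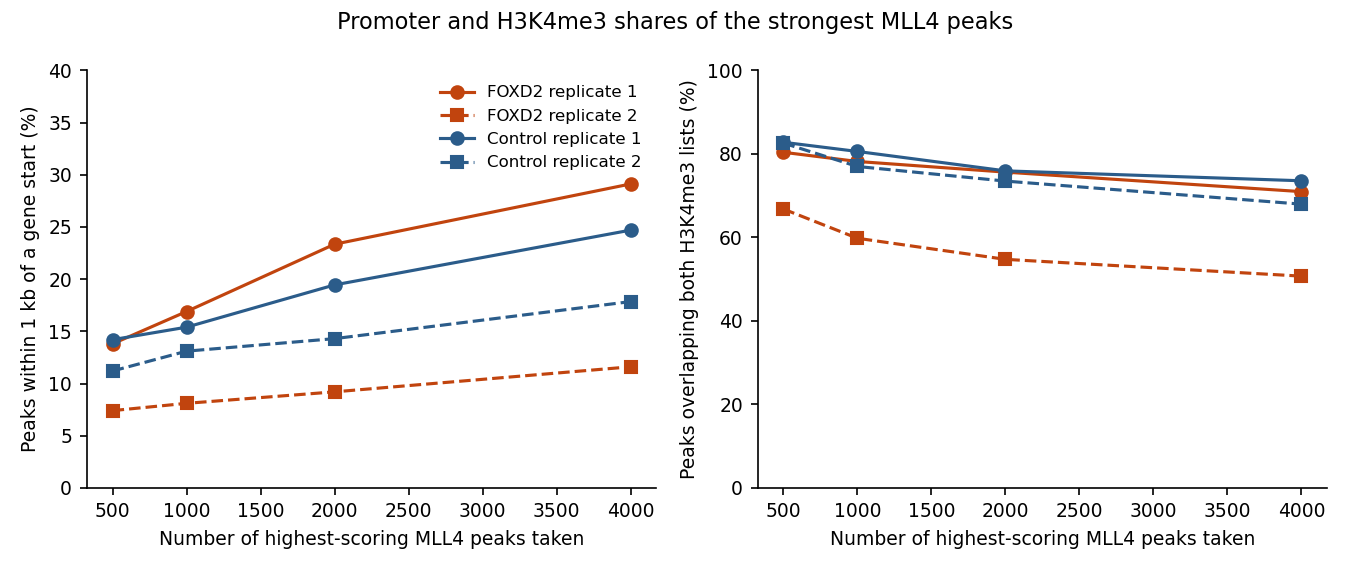
Share of the strongest MLL4 peaks (vertical axes, percent) that lay within 1 kb of a gene start (left) or overlapped both H3K4me3 lists (right), against the number of peaks taken (horizontal axes); each line is 1 library, FOXD2 in red and Control in blue. At 2000 peaks FOXD2 replicate 2 stood at 9.2% and 54.75%, below the other 3 libraries in both panels.

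The Control pair shared more of its strongest regions than any mixed pair at every depth from 500 to 4000 peaks, whereas the FOXD2 pair did so only at 500 and 1000. Of the 500 strongest, 216 were common to both FOXD2 lists and 255 to both Control lists, which is 27.6% and 34.2% of each pair's union. The 4 pairs of 1 FOXD2 and 1 Control list shared 168 to 186 regions, or 20.2% to 22.9%. At 2000 peaks the FOXD2 pair shared 27.6% of its union, inside the range of 23.2% to 28.9% of the mixed pairs, whereas the Control pair shared 39.6%. Across the 2182 regions held by all 4 lists, the Spearman correlation between ranks was 0.418 for the FOXD2 pair, 0.644 for the Control pair and 0.307 to 0.454 for the mixed pairs. These are correlations across regions of the same libraries, given as a description. By both measures the FOXD2 pair lay within or at the edge of the range of the mixed pairs beyond the top of the lists.

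**Figure D2:**
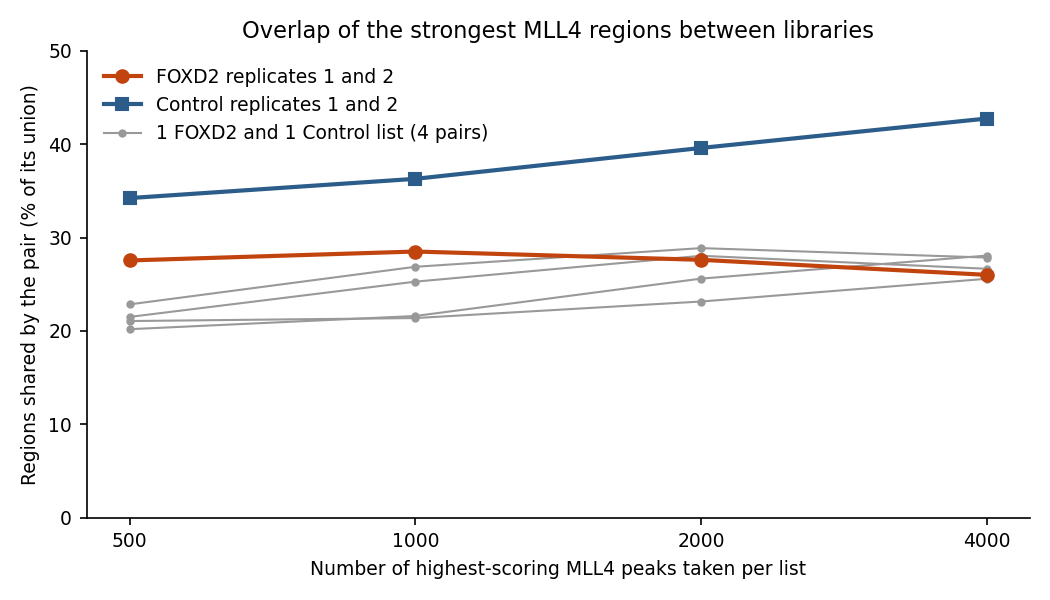
Regions shared by 2 MLL4 libraries as a percentage of the regions held by either (vertical axis), at 500 to 4000 strongest peaks per list (horizontal axis). The Control pair, at 34.2% and 39.6% for 500 and 2000 peaks, lay above all other pairs, and the FOXD2 pair, at 27.6% for both, ran into the range of the 4 mixed pairs.

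Among the 2182 shared regions, ranks were turned into normal scores and compared with limma across all regions. At an adjusted p under 0.05 (Benjamini-Hochberg), 2 regions (0.0917%) were higher and 0 lower in FOXD2 cells, and 255 (11.7%) had an unadjusted p under 0.05, of which 139 were higher. The first called region lay on chromosome 8 (125410459 to 125411119), 19540 bp from TRIB1, a pseudokinase that recruits the ubiquitin ligase COP1. It ranked 582 and 153.5 of the 2182 regions in FOXD2 cells against 2152 and 2182 in Control cells, a difference in mean score of 3.90 (SE 0.65, limma adjusted p = 0.0191). Both FOXD2 ranks were well above the Control ranks, which were among the weakest of the shared regions. The other lay on chromosome 12 (53658774 to 53659710), 16333 bp from ATP5MC2, which encodes the c subunit of mitochondrial ATP synthase. It ranked 303 and 137 in FOXD2 cells against 2162 and 2046 in Control cells, with a difference of 3.25 (SE 0.62, limma adjusted p = 0.0467). Both calls were lost when regions were ranked by fold enrichment (adjusted p = 0.228 and 0.324), with untransformed ranks (0.345 for both) and without Control replicate 2 (0.209 and 0.0986), and the ATP5MC2 call also without Control replicate 1 (0.386). With only peaks of −log10 q of 5 or more, neither region could be tested among the 1357 regions then shared, since TRIB1 had 2.70 and 2.04 in the Control lists and ATP5MC2 had 2.67 in Control replicate 1. A fit with the replicate number, which the source label follows, as a block called 19 regions (17 higher, 2 lower), both of these among them (adjusted p = 0.000547 and 0.00422). The number of calls ran from 0 to 86 over the settings tried, which are given with the closing observations, so the count itself is not a stable measure.

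**Figure D3:**
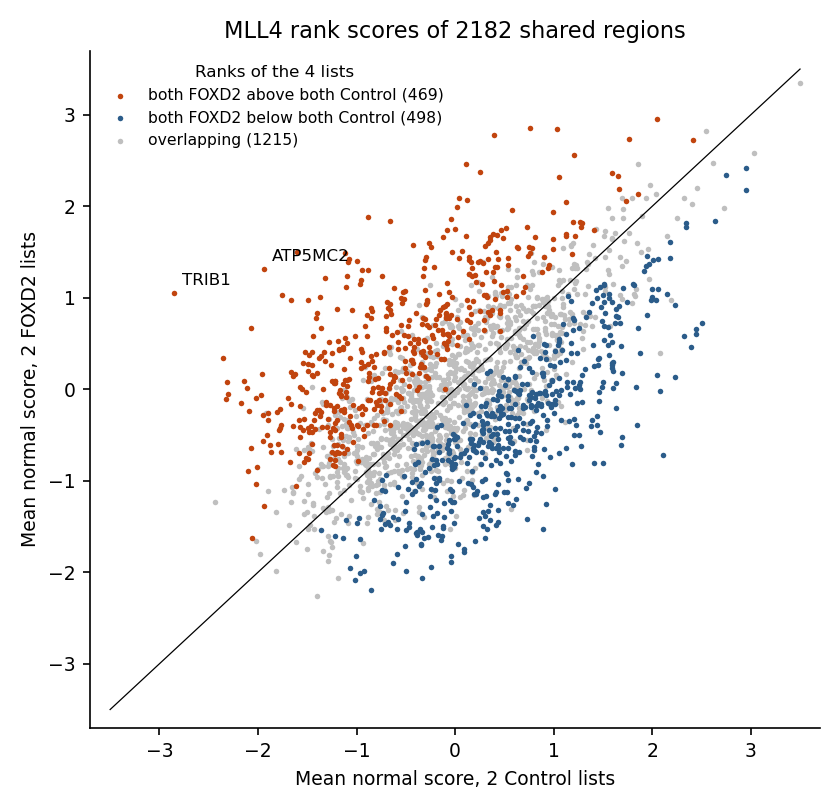
Mean normal score of the MLL4 rank in the 2 FOXD2 lists (vertical axis) against that in the 2 Control lists (horizontal axis) for the 2182 shared regions, with a line at equal scores. Red points (469) had both FOXD2 ranks above both Control ranks, blue points (498) both below, and the 2 named regions are those called by limma.

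Without regard to a test, both FOXD2 ranks lay above both Control ranks at 469 regions (21.5%) and below them at 498 (22.8%). With 2 libraries against 2, many regions would take such an order even if ranks did not depend on the group. The counts were not tested against that, so a region called higher or lower here is a description only. The 10 regions with the largest rise were 8 distal and 2 proximal ones, none at a promoter, and 4 of the 10 overlapped H3K4me3 in both FOXD2 and Control cells. The 10 with the largest fall were 7 distal, 2 proximal and 1 at a promoter, and 8 of the 10 overlapped H3K4me3 in both. Over all 469 higher and all 498 lower regions these shares were closer, with H3K4me3 at 72.1% and 81.7% and promoters at 15.6% and 17.7%. Score differences among the first 10 ran from 2.54 to 3.90 (limma adjusted p from 0.0191 to 0.128) and among the others from -2.83 to -2.10 (0.0823 to 0.247), so all but the 2 called regions missed the threshold.

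The regions with higher scores lay near genes of varied function. A region 30051 bp from XDH, which encodes xanthine dehydrogenase of purine breakdown, ranked 569 and 21 in FOXD2 cells against 2152 and 1840 in Control cells. A region 8033 bp from ELP3, the catalytic subunit of the Elongator complex, ranked 78.5 and 55 in FOXD2 cells against 1852 and 1682.5 in Control cells. One 19379 bp from RBBP8, which encodes the DNA end-resection factor CtIP, ranked 197 and 112.5 in FOXD2 cells against 2050 and 1643 in Control cells. In each of these both Control ranks were below both FOXD2 ranks, by a gap of over 1000 places. Others lay near CIPC, CMIP and PLCD1, and 1 had no gene start within 100 kb.

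The regions with lower scores also lay near genes of varied function. The largest fall was 10370 bp from WWC1, which encodes the Hippo pathway scaffold KIBRA, where the region ranked 1432.5 and 1855 in FOXD2 cells against 57 and 26 in Control cells (difference -2.83, SE 0.61, limma adjusted p = 0.0823). A region 19626 bp from LMNA, encoding nuclear lamins A and C, ranked 1305 and 1992 in FOXD2 cells against 186 and 111 in Control cells. One 17533 bp from EPHA2, an ephrin receptor kinase, ranked 483.5 and 2106.5 in FOXD2 cells against 69 and 140 in Control cells. At EPHA2 the FOXD2 libraries were far apart, and the difference of -2.21 became -0.80 without FOXD2 replicate 2. The P4HTM promoter, shown above, ranked 1305 and 1992 in FOXD2 cells against 146 and 207 in Control cells, and P4HTM encodes a transmembrane prolyl hydroxylase that acts on the HIF alpha subunits. The remaining named genes were AZIN2, B4GALT5, GSG1 and GSDMC, and 2 regions had no gene start within 100 kb.

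**Figure D4:**
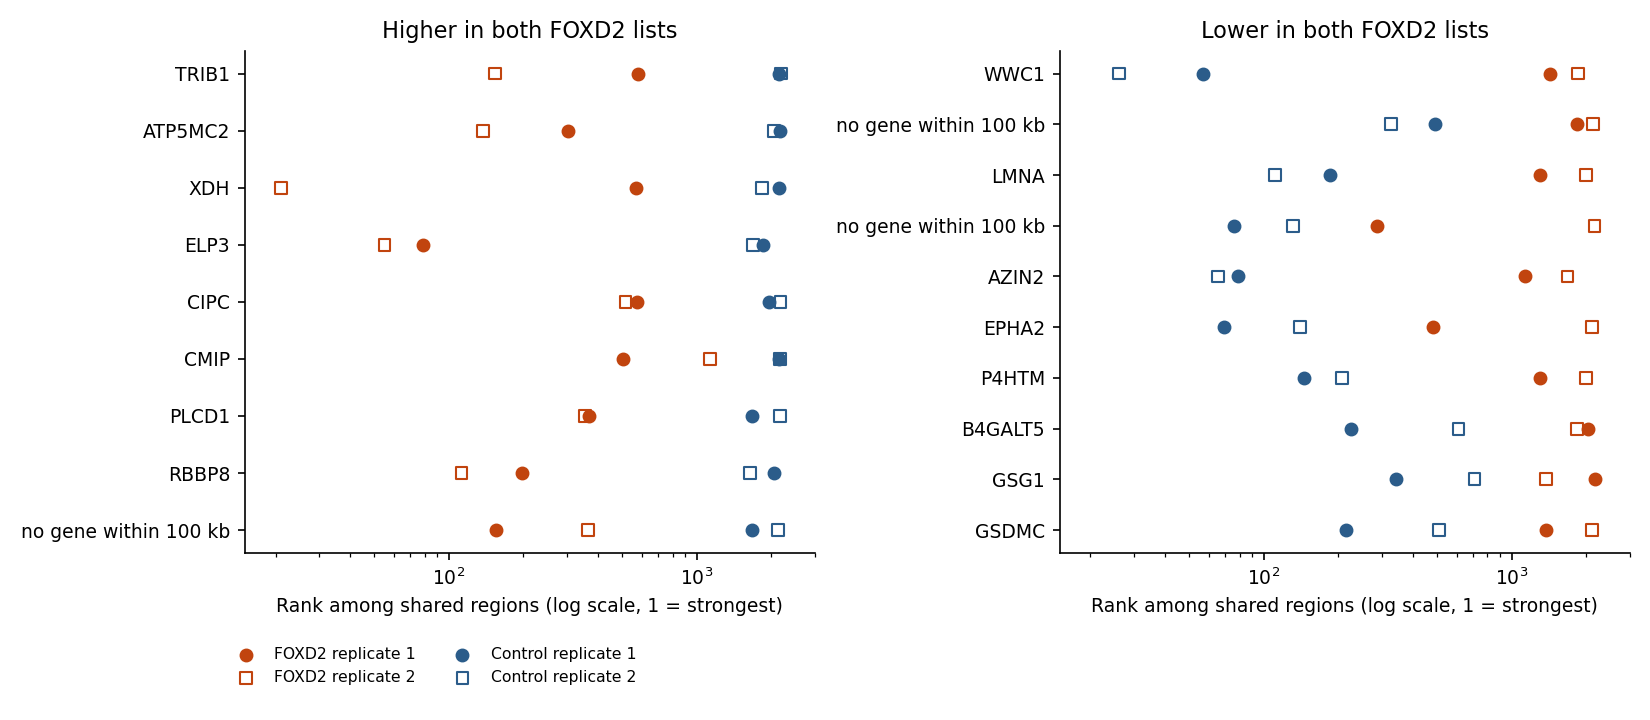
Rank of each named region among the 2182 shared regions (horizontal axis, log scale, 1 is the strongest) in 2 FOXD2 libraries (red) and 2 Control libraries (blue); rows are the regions drawn, named by the nearest gene start. On the left the TRIB1 region ranks 582 and 153.5 in FOXD2 and 2152 and 2182 in Control libraries, and on the right the WWC1 region ranks 1432.5 and 1855 in FOXD2 and 57 and 26 in Control libraries.

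Some genes had several shifted regions; these were picked out after their values were seen, and 21.5% of all shared regions were higher and 22.8% lower in both FOXD2 lists. PLEC, encoding the cytoskeletal linker plectin, had 3 regions lower in both FOXD2 lists out of 5 shared ones. EPHB2, an ephrin receptor and Wnt target, had both of its shared regions lower, as had others such as ANXA11 and CUX1. ITGA3, encoding integrin alpha 3, had 2 of 3 lower. Others were mixed, such as YWHAZ with 2 higher and 1 lower region, and ABCC1 and IER2 with 1 higher and 2 lower. No gene had over 2 higher regions. ADCY9, BAIAP2L1 and CDC42BPB were among several genes with both shared regions higher, as were LRATD2, NWD1 and RPEL1. KRT7 was among several with 2 FOXD2-only regions, as were MIER3, SEC14L1 and TRAK1. Genes with 2 Control-only regions included KMT2E, HDAC5, NCOA2, GRHL3 and LTBP3.

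At equal list length, 226 of the 4531 regions in any top 2000 were FOXD2-only (4.99%) and 332 were Control-only (7.33%), and 444 were in all 4. For the mixed pairs, 79 to 156 regions were held by that pair and by no other list. The FOXD2-only regions had median ranks of 829 and 842 in the FOXD2 lists, and 144 and 158 of the 226 still had a weaker peak in the Control lists, with 47 (20.8%) absent from both. The Control-only regions had median ranks of 1017 and 1031 in the Control lists, and 231 and 122 of the 332 had a weaker peak in the FOXD2 lists, with 76 (22.9%) absent from both. Most regions of both classes therefore also had an MLL4 peak in at least 1 list of the other group.

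The leading FOXD2-only regions, apart from ELP3, lay near FBN3, a fibrillin, where ranks were 113.5 and 53 in FOXD2 cells against 4133 and 4930 in Control cells, and near ZCCHC4, which ranked 92 and 127 in FOXD2 cells and was absent from both Control lists. PCDH1, a protocadherin, had a region ranked 180 and 51 in FOXD2 cells against 2394 and 2227.5 in Control cells. POGLUT3, a protein O-glucosyltransferase, had a promoter region ranked 214 and 18 in FOXD2 cells, against 2347.5 in Control replicate 1 and no peak in Control replicate 2. The DENND2B promoter shown above ranked 381.5 and 442 in FOXD2 cells and was absent from both Control lists. The BFSP1 promoter ranked 1021 and 496.5 in FOXD2 cells, against 5687.5 in Control replicate 1 and no peak in Control replicate 2. The others named by the same rule lay near CIB4, DENND3 and GAREM1 or far from any gene start, and at the CHI3L2 and ZER1 promoters.

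The leading Control-only regions, apart from WWC1, AZIN2 and LMNA, lay near NRP2, a semaphorin and VEGF co-receptor, which ranked 5418.5 in FOXD2 replicate 1 and was absent from replicate 2, against 94 and 116 in Control cells. Regions near PRKCZ, an atypical protein kinase C of cell polarity, and TEX36 were absent from both FOXD2 lists and ranked 162.5 and 179, and 153 and 190, in Control cells. The SPATA2L region, whose promoter window is shown above and whose summit was 1245 bp from the start, ranked 2588.5 in FOXD2 replicate 1 and was absent from replicate 2, against 98 and 275.5 in Control cells. TRAF4, a TRAF-family signalling adaptor, had a promoter region absent from both FOXD2 lists and ranked 629 and 82.5 in Control cells. RDX, which encodes the membrane-actin linker radixin, had a promoter region ranked 3088.5 in FOXD2 replicate 1 and absent from replicate 2, against 438.5 and 224.5 in Control cells. The others lay near TXNDC5, NYAP1 and ATXN10 and at the PSCA and OTUD7B promoters.

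FOXD2-only regions were more often distal and less often marked by H3K4me3 than Control-only regions. Of the 226, 17 (7.52%, 95% Wilson interval 4.75% to 11.7%) were at promoters and 186 (82.3%, 76.8% to 86.7%) were distal, and 109 (48.2%, 41.8% to 54.7%) overlapped H3K4me3 in both FOXD2 and Control cells. Of the 332 Control-only regions, 54 (16.3%, 12.7% to 20.6%) were at promoters, 220 (66.3%, 61.0% to 71.1%) were distal and 239 (72.0%, 66.9% to 76.5%) overlapped H3K4me3. The intervals cover the counting of regions only, and the lower promoter and H3K4me3 shares of FOXD2 replicate 2 move with this contrast, whose part in it was not tested. Of the 444 regions in the top 2000 of all 4 lists, 12.4% were at promoters, 71.2% were distal and 85.4% overlapped H3K4me3. Both group-only classes therefore lay below these in H3K4me3, the FOXD2-only class further. Sites bound by tagged FOXD2, taken as regions in all 4 lists of cells given pcDNA3.1-FOXD2-3xflag-6xhis, lay in 25 of the 226 (11.1%) and 46 of the 332 (13.9%), against 292 of the 2182 shared regions (13.4%). Those intervals overlapped (7.61% to 15.8% and 10.6% to 18.0%).

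H3K27ac, which was not used to choose the regions, was found more often at FOXD2-only regions in FOXD2 cells. A peak of the mark lay on 88.5% and 86.7% of the 226 regions in the FOXD2 lists, against 67.7% and 69.0% in the Control lists. Both FOXD2 libraries were above both Control libraries (87.6% ± 1.3 against 68.4% ± 0.94, SD, n = 2 each, difference 19.2 percentage points, exact permutation p = 0.333, two-sided, the smallest possible). The lengths of the H3K27ac lists, 85122 and 141008 peaks in FOXD2 cells against 129995 and 85832 in Control cells, did not follow this order, and the difference was 20.35 points with all lists at the length of the shortest, an alternative added after the data were seen. At Control-only regions H3K27ac covered 94.6% and 89.5% in FOXD2 cells against 90.1% and 90.4% in Control cells, and the groups overlapped (exact permutation p = 1). Over all 2182 shared regions the shares were 95.9% ± 1.4 in FOXD2 cells and 91.5% ± 0.62 in Control cells (SD, n = 2 each, exact permutation p = 0.333).

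H3K4me1 covered nearly every region of both classes in every list. It lay on 99.6% and 99.1% of the FOXD2-only regions in FOXD2 cells against 99.1% and 99.1% in Control cells, and on 99.7% and 99.4% of the Control-only regions in FOXD2 cells against 100% and 99.1% in Control cells (exact permutation p = 1 for both). Presence of the mark could therefore not tell the groups apart, and its rank was compared in a step added after the data were seen, as normal scores of −log10 q among the MLL4 regions of interest that held the mark in all 4 of its lists. At FOXD2-only regions the median H3K4me1 score was -0.22 and -0.08 in FOXD2 cells against -0.66 and -0.59 in Control cells. At Control-only regions it was -0.01 and -0.17 in FOXD2 cells against 0.21 and 0.25 in Control cells. The groups did not overlap in either class and differed in opposite directions (0.48 and -0.31, exact permutation p = 0.333 each). H3K27ac scores moved the same way, with medians of -0.16 and -0.03 in FOXD2 cells against -0.51 and -0.56 in Control cells at 133 FOXD2-only regions, and of -0.14 and -0.09 in FOXD2 cells against 0.11 and 0.16 in Control cells at 272 Control-only regions. Across shared regions the MLL4 score difference was only weakly related to that of the marks (Spearman correlation 0.198 over 2132 regions for H3K4me1 and 0.113 over 1887 for H3K27ac, given as a description).

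**Figure D5:**
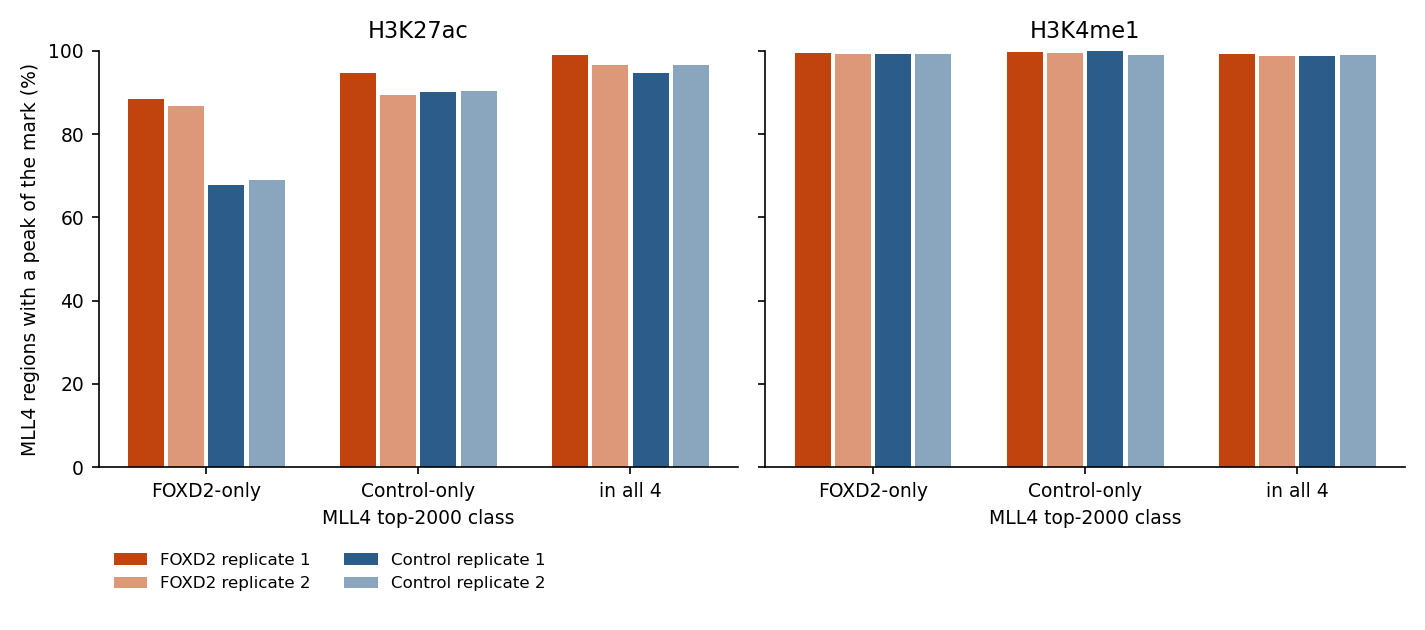
Percentage of MLL4 regions that held a peak of H3K27ac (left) or H3K4me1 (right) in each library (bars from 0, FOXD2 in red and Control in blue, paler for replicate 2) for the FOXD2-only, Control-only and all-4 classes of the top 2000. H3K27ac at FOXD2-only regions stood at 88.5% and 86.7% in FOXD2 libraries against 67.7% and 69.0% in Control libraries, and H3K4me1 was at 98.6% or above in every bar.

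H3K4me3 was measured in 1 library per group, so its difference has no replicate check. It covered 61.9% of FOXD2-only regions in FOXD2 cells and 55.3% in Control cells, and 74.1% of Control-only regions in FOXD2 cells and 84.0% in Control cells. Over the shared regions it covered 81.6% in FOXD2 cells and 85.7% in Control cells.

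By promoter, 5197 and 551 protein-coding genes had an MLL4 peak within 1 kb of a start in FOXD2 cells, against 4621 and 3336 in Control cells, of 19974 genes. All 4 lists held 370 of these genes. The FOXD2 pair alone held 22 genes, and the Control pair alone held 632. These counts move with the length of the FOXD2 replicate 2 list, whose part in them was not tested.

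Gene groups were described by their nearest regions. Over all protein-coding genes, 8.25% were nearest to a shared region, 2.03% to one higher in both FOXD2 lists and 2.16% to one lower in both. The median score difference was -0.04. Only a gene with a shared region can count as higher or lower, so lists rich in shared regions hold more of both. By region, 21.5% of all shared regions were higher and 22.8% lower. A FOXD2-only region was nearest to 0.891% of all genes and a Control-only region to 1.43%. These shares do not allow for the number of MLL4 regions per gene, and a gene with many has more places for such a region. No region of a listed gene was called by limma. Of 18 genes of epithelial junctions and keratins, 13 had a shared region, 5 had a higher one and 5 a lower one, with a median difference of 0.38. By region, 5 of their 14 shared regions were higher and 5 lower. JUP, encoding the junction protein plakoglobin, had a region ranked 4 and 7 in FOXD2 cells against 186 and 533 in Control cells (difference 1.82, limma adjusted p = 0.239), and CDH1, encoding E-cadherin, one ranked 27 and 112.5 in FOXD2 cells against 120 and 756.5 in Control cells. A merged region of 3077 bp at KRT8 ranked 524.5 and 380 in FOXD2 cells against 1040 and 872 in Control cells. Only the FOXD2 lists had a peak summit within 1 kb of the KRT8 start, so the Control ranks come from peaks elsewhere in the region. A region 3004 bp from KRT18 ranked 1155 and 1914.5 in FOXD2 cells against 1001.5 and 1148 in Control cells. CLDN4, a claudin of tight junctions, had a region ranked 1737 and 1900.5 in FOXD2 cells against 810 and 860 in Control cells. Control-only regions lay near 2 of the 18 genes (CLDN4 and PKP3, 11.1%, against 1.43% of all genes) and FOXD2-only regions near 0. All 18 had an MLL4 region in any list, against 60.6% of all genes. The other higher genes were ESRP1 and GRHL2, and other lower ones included CLDN7 and DSP.

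Of 16 genes of the YAP and AP-1 list, 9 had a shared region. A higher one was found at 2 (ATF3 and TEAD1) and a lower one at 5 (AMOTL2, FOSL1, JUN, JUNB and JUND). By region, 2 of their 15 shared regions were higher and 5 lower, with a median difference of -0.14. A region 65052 bp from JUN, an AP-1 subunit, ranked 1983 and 2167 in FOXD2 cells against 1184 and 1079 in Control cells (difference -1.85, limma adjusted p = 0.239). A region 3709 bp from ATF3, a stress-induced partner of JUN proteins, ranked 990.5 and 482.5 in FOXD2 cells against 2037.5 and 1757.5 in Control cells. The promoter of LATS2, a kinase that restrains YAP, was Control-only, absent from both FOXD2 lists and ranked 665.5 and 686 in Control cells. Of the 16 genes, 2 had a Control-only region and 2 a FOXD2-only region, against 1.43% and 0.891% of all genes. All 16 had an MLL4 region in any list, against 60.6% of all genes.

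Of 16 TGF-beta and BMP genes, 3 had a shared region, 0 had a higher one and 2 a lower one (SMAD3 and SMAD7). By region, 0 of 7 were higher and 3 lower, with a median difference of -0.43. SMAD3 alone held 5 of these 7 regions, so the median mostly describes that gene. SMAD3, a receptor-activated transducer of TGF-beta, had a distal region 12506 bp from its start that ranked 1548 and 1960 in FOXD2 cells against 537 and 793.5 in Control cells. Control-only regions lay near 4 of the 16 genes (ID2, SKIL, SMAD3 and SMAD6), against 1.43% of all genes. All 16 had an MLL4 region in any list, against 60.6% of all genes. SMAD3, SMAD6 and ID2 had 22, 14 and 12 such regions and SKIL had 3, so the share of all genes is not a like background. A FOXD2-only region lay near 1, ID3, against 0.891% of all genes. Of 18 Wnt targets, 6 had a shared region, 3 had a higher one (AXIN2, NOTUM and TCF7L2) and 1, EPHB2, a lower one. By region, 3 of their 9 shared regions were higher and 2 lower. The TCF7L2 region, near the gene for a nuclear effector of Wnt signalling, ranked 541 and 206 in FOXD2 cells against 1849 and 1149 in Control cells. Of 17 genes of EGFR and MAPK feedback, 1 (EGR1) had a higher region and 3 (DUSP5, DUSP6 and IER3) a lower one, with a median of -0.43. By region, 1 of their 7 shared regions was higher and 3 were lower.

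Of 17 genes of H3K4 methyltransferases and their complexes, 13 (76.5%) had an MLL4 region in any list, against 60.6% of all genes, and 9 (52.9%) one at a promoter, against 37.4%. A single gene (5.88%, against 8.25%) had a shared region, at the promoter of SETD1A, which ranked 1291 and 2092.5 in FOXD2 cells against 1600 and 1996 in Control cells. A Control-only region near SETD1B, a methyltransferase of the same family, ranked 4406.5 in FOXD2 replicate 1 and was absent from replicate 2, against 833 and 1607.5 in Control cells. It was the only gene of the 17 with a Control-only region (5.88%, against 1.43% of all genes). The KMT2D promoter had a peak in FOXD2 replicate 1 (rank 18787) and Control replicate 2 (rank 7685) only. The FOXD2 gene had a promoter peak in FOXD2 replicate 1 (rank 12232) and Control replicate 2 (rank 6632.5) only. Over all genes, 62.3% had H3K4me3 at a start and 8.25% a shared region. Of 18 cell cycle genes, all 18 had H3K4me3 at a start and none a shared region, and of 16 ribosomal protein genes 16 and 2 did. Heat shock genes and splicing factors had 1 of 16 and 3 of 18 genes with a shared region, and enhancer coactivators 4 of 14. The mesenchymal, p53, oncofetal, interferon and intestinal lists had 3 of 16, 5 of 18, 3 of 12, 2 of 14 and 1 of 16, and the forkhead list 1 of 16, which was FOXK2. Of 12 genes each, blood markers had none, and fibroblast and endothelial markers and neural markers 2 each.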

How the data were processed

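Reads were handled with MACS2 2.2.7.1, Bowtie2 2.3.4.1, cutadapt 3.4, bedtools and Picard, with hg38 as build, per the submitters' processing notes, which give no order or role. Each library has its own deposited narrowPeak list. Column 7 of the deposited lists is each peak's fold enrichment, a ratio, and column 9 its q-value as −log10. These are the authors' values and were used only to rank, filter or describe peaks within a list. The background library and read depth are not given in the sources used here, so no interval for depth is given. Numbers in some peak names differ from the labels' replicate numbers, which were followed.

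Only chromosomes 1 to 22 and X were used, which left out 26 and 1 peaks of the FOXD2 lists and 13 and 6 of the Control lists. Lists were merged into regions (gap 0 bp, overlap of at least 1 bp), and a region took its highest −log10 q in a list. Gene starts came from the RefSeq promoter table (22132 starts of 15812 protein-coding genes). The other 4162 genes were placed by both gene ends, so some of their promoter calls may mark an end. A gene was assigned by the nearest start within 100 kb. Shared regions were re-ranked, turned to normal scores and fitted with limma 3.58.1 (R 4.3.3, Benjamini-Hochberg). Group means of shares were compared by exact permutation tests.

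The regions named were KMT2D and FOXD2, the 10 with the lowest rank sum over all 4 lists, the 10 with the largest score difference in each direction without overlap of groups, the first 10 of each top-2000 class, the leading promoter regions of those classes, and shifted members of 20 lists holding 312 genes. A few items that these rules name are not reported here. The members and lists were chosen with earlier results of these data known, so no list is independent evidence. The promoter subset, the sequences, the rank of histone marks, the tag-site shares and the per-gene counts were added after the data were seen. Software was scipy 1.17.1, pandas 2.3.3, numpy 2.4.6 and matplotlib 3.10.9 under Python 3.11.15. The overlap and merging of intervals and the limma fit on rank scores were tested on simulated data, and the other steps were not.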

Additional observations from a re-analysis of the deposited data

How the results depend on the processing

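The count of regions called by limma depended most on the setting. Against 2 calls (2 higher, 0 lower), there were 18 with a −log10 q of 5 or more (12 higher, 6 lower), 0 when ranked by fold enrichment, 0 with untransformed ranks, 0 over 376 promoter regions alone, and 0 to 86 with each library left out. The fit with a replicate block gave 19 (17 higher, 2 lower). Deviations from the group means in FOXD2 replicate 1 and Control replicate 1 correlated at 0.0886 across the 2182 shared regions. There are only 2 pairs of same-numbered libraries, and the labels do not say that a number marks a shared batch. Without FOXD2 replicate 1 there were 86 calls and without FOXD2 replicate 2 there were 49, in fits with 1 FOXD2 library that is assumed to vary like the Controls. Without Control replicate 1 there was 1 call, and without Control replicate 2 there were 0. At an unadjusted p under 0.05, the settings with 0 calls had 191 (fold), 257 (untransformed), 35 (promoters) and 175 regions (without Control replicate 2). With a merging gap of 500 bp there were again 2. The settings did not test equal numbers of regions. There were 2182 in the main fit, 1357 at −log10 q of 5 or more and 2216 with the 500 bp gap. Without FOXD2 replicates 1 and 2 there were 2615 and 5209, and without Control replicates 1 and 2 there were 2417 and 2319.

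The groups did not overlap at 967 regions (44.3% of those shared). At −log10 q of 5 or more they did not overlap at 615 of 1357 re-ranked regions (45.3%). With a library left out, fewer samples must agree and more regions are shared (2319 to 5209). The groups then did not overlap at 1573 to 3822 regions, or 67.8% to 77.1% of those shared, so these counts cannot be set beside 967. FOXD2-only and Control-only regions numbered 87 and 91 of the 1204 regions in any top 500. They were 140 and 177 of 2334 for the top 1000, and 403 and 682 of 8986 for the top 4000. When absent from the other group's top 4000, they numbered 146 and 183. They numbered 308 to 1019 and 477 to 882 with a library left out, where fewer lists must agree.

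Leaving out a library turned some directions. The difference in peaks per list ran from -10130 to 7684, in promoter share of the top 2000 from -7.67 to 6.47 percentage points, in H3K4me3 share of the top 2000 from -19.97 to 0.925, and in H3K27ac at Control-only regions from -0.753 to 4.37. FOXD2 replicate 2 or Control replicate 1 turned the first 2 of these, FOXD2 replicate 2 the third, and FOXD2 H3K27ac replicate 1 the last. H3K27ac at FOXD2-only regions kept its direction in all 12 alternatives (11.1 to 24.1 points), and the promoter share of whole lists in all 9 (-17.0 to -3.73). In both, the FOXD2 values lay on the same side of both Control values. The alternatives that leave out 1 of the lists compared could therefore not turn the direction. None of the 20 regions with the largest score differences changed direction where they could be fitted (2 of them at −log10 q of 5 or more). These 20 were chosen with both FOXD2 ranks on the same side of both Control ranks. Leaving out a library could therefore hardly turn them, and their kept direction is no check. Other named regions were not refitted one by one. The cause of these changes was not tested. With 2 libraries per group and no read depth, changes below the spread of the FOXD2 pair were not detectable.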
